A study of Saccharomyces cerevisiae with 12 samples.

Results

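The genes described here encode the proteins of the small subunit of the cytosolic ribosome in Saccharomyces cerevisiae. They were taken by name from the deposited comparison table, where 56 of 5880 rows carry a name from RPS0A to RPS31. Of these, 53 have values, and RPS28A, RPS30A and RPS30B have none. The 56 genes encode 32 proteins, of which 8 come from a single gene and 24 from a pair of gene copies, and 22 of the pairs had values for both copies. The strains were Y55 wild type and the UV-induced mutants of it named fhf1, fhf2 and fhf3, each labelled with a fast-fermenting phenotype on maltose. All share the Y55 background JT20150, mating type alpha, with the MAL1 and SUC1 loci. The genes altered in the mutants are not named in the labels. Each strain was grown in 3 separate cultures, in a stirred semi-aerobic fermentation of yeast extract, peptone and 20% maltose at 22 °C, and cells were taken on day 2. Poly(A) RNA of each culture was hybridised to 1-colour arrays that carry 8 probes for a gene and follow another strain, S288C.

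The small subunit binds the messenger RNA and hosts the pairing of its codons with transfer RNA. Its proteins fold around the ribosomal RNA in a head and a body. Ribosomal proteins are needed in equal numbers, and in growing yeast their genes are transcribed together, under Rap1, Fhl1 with its coactivator Ifh1, and Sfp1, in step with nutrient signals that pass through TORC1 and protein kinase A. Most are present as a pair of copies kept from the whole-genome duplication, and the protein copies of a pair are alike or nearly so. Signal of one copy on the probes of the other was not tested.

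Values are given on a log2 scale. The deposited array values had not been brought to a common level: the median gene of an array lay between 12.09 and 12.98. A relative level below is therefore a gene's log2 value minus the median gene of its array, and a relative difference is the log2 difference between 2 strains minus that of the median gene, which was 0.05 in fhf1, 0.10 in fhf2 and -0.28 in fhf3 against wild type. On arrays centred by their own medians the median gene still differed from wild type by 0.04 in fhf1, 0.03 in fhf2 and 0.10 in fhf3, so a relative difference is lower by that much than the difference of mean relative levels. Because probes differ in brightness, relative levels are compared between arrays for 1 gene and not between genes. Tests were made with limma across 5769 genes at an adjusted p under 0.05, in 2 forms. The first took the values as deposited, so the unequal array levels stayed in the error: the standard error of a relative difference was 0.261 to 0.274 for small-subunit genes. This error is nearly alike for all genes, so the p-values of the first form reflect little of a gene's own spread between cultures. The second took each array centred on its own median gene, which leaves every relative difference as it was and gave standard errors of 0.106 to 0.236. "Rose" and "fell" refer to the first unless the centred arrays are named.

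The cultures were checked against the mating type in their labels. Among alpha-cell markers, MF(ALPHA)1 lay between percentiles 84.8 and 96.1 of signal over the arrays, STE3 between 75.8 and 92.7, and MF(ALPHA)2 between 18.5 and 66.9. Among a-cell markers, BAR1, AGA2, STE2 and STE6 stayed between percentiles 3.6 and 11.5, whereas MFA1 reached 51.4 and MFA2 30.3. In the fit on the deposited values, 4 of the 6 a-cell markers fell in fhf3 against wild type and none did in fhf1 or fhf2. With the arrays centred these counts were 5, 1 and 1 for fhf3, fhf1 and fhf2. Of all genes, 11.6% fell in fhf3 and 25.4% with the arrays centred. Of the 3 alpha-cell markers, 1 rose in fhf3 and 2 with the arrays centred, where 4.39% and 19.3% of all genes rose. The part of these marker changes in the results below was not tested.

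Relative to the median gene, the small-subunit genes as a group were lower in fhf1 and fhf2 than in wild type and higher in fhf3. Without centring on the median gene, their median difference in fhf3 was -0.0012. The median of the 53 relative levels in the wild type cultures was 0.96, 1.25 and 0.92. It was 0.12, 0.58 and 0.77 in fhf1, 0.68, 0.64 and 0.72 in fhf2, and 1.41, 1.37 and 1.38 in fhf3. All fhf1 and fhf2 cultures lay below all wild type cultures, and all fhf3 cultures above them. The strain means were 1.04 ± 0.18 in wild type, 0.49 ± 0.33 in fhf1, 0.68 ± 0.04 in fhf2 and 1.39 ± 0.02 in fhf3 (SD, n = 3). The cultures of fhf1 were the farthest apart: replicate 1 was the lowest of its strain in 53 of 53 genes. In wild type, replicate 2 was the highest in 49 of 53. In cultures read as a whole, a smaller share of cells with high levels and a lower level in each cell cannot be told apart, and strain and stage of fermentation on day 2 cannot be told apart either.

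**Figure D1:**
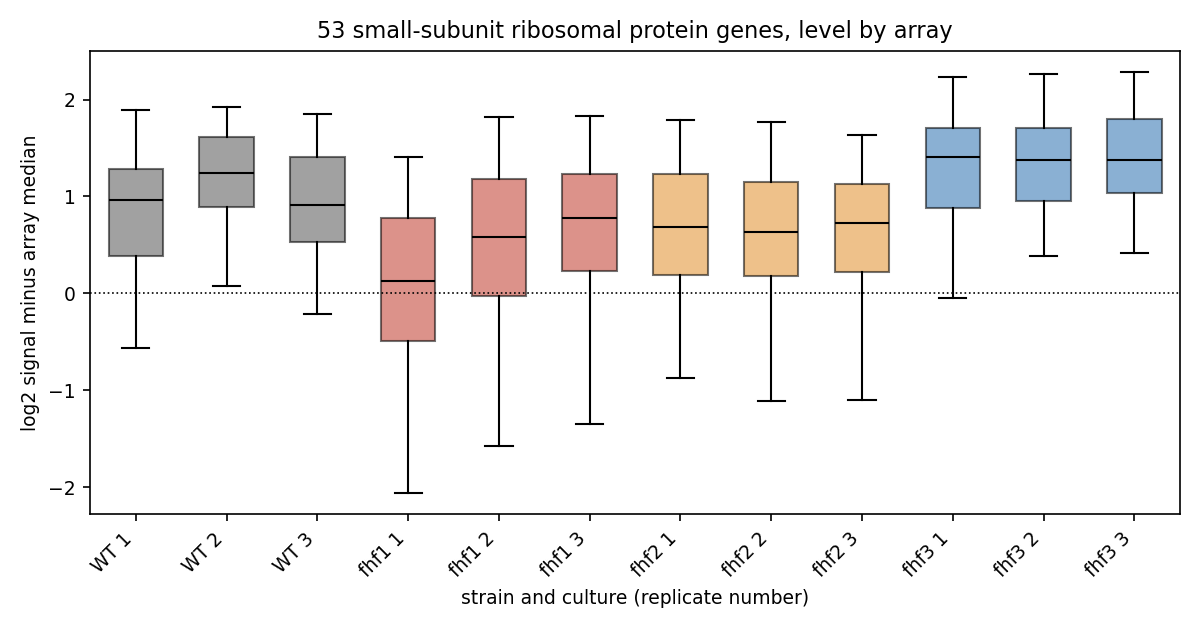
Relative levels (log2 value minus the array's median gene, y axis) of the 53 measured small-subunit genes on each of the 12 arrays, grouped by strain. The array medians of fhf3 lie between 1.37 and 1.41, those of fhf1 spread from 0.12 to 0.77, and those of the 3 fhf2 arrays lie between 0.64 and 0.72.

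Large-subunit genes, of which 73 had values, stood in the same order, with mean array medians of 0.86 in wild type, 0.36 in fhf1, 0.52 in fhf2 and 1.25 in fhf3.

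In fhf1, all 53 relative differences from wild type were below 0, with a median of -0.54 and a range from -1.77 to -0.05, where the median of all genes is 0 by construction. The fit on the deposited values called 6 of them, all lower, against 2.36% of all genes called lower. After centring the arrays, 33 fell, against 11.1% of all genes. In 28 genes the 3 fhf1 cultures lay below all wild type cultures, which held for 13.8% of all genes. The first count was 1 without fhf1 replicate 1, 2 without fhf1 replicate 2, 12 without wild type replicate 1 and 16 without fhf1 replicate 3. On centred arrays it was 16 without both fhf1 replicate 1 and wild type replicate 2, a setting added after the data were seen.

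The 6 genes that fell in fhf1 encode proteins of the body of the subunit. RPS22A (YJL190C), 1 of the copies for the rRNA-binding protein uS8, had relative levels of -0.30, 0.40 and 0.10 in wild type, -2.07, -1.58 and -1.35 in fhf1, -0.74, -1.11 and -1.10 in fhf2, and 0.58, 0.56 and 0.42 in fhf3. No strain overlapped another. Its relative difference in fhf1 was -1.77, a level 3.41-fold lower (limma, adjusted p = 1.21e-07 as deposited and 1.65e-06 with the arrays centred). The other copy, RPS22B (YLR367W), stood at 0.10, 0.93 and 0.45 in wild type and at -0.28, 0.14 and 0.60 in fhf1. These cultures overlapped, and the relative difference of -0.38 did not pass (adjusted p = 0.846 as deposited and 0.220 with the arrays centred). In fhf2, RPS22B was at 0.23, 0.34 and 0.48, within the wild type range. In fhf3 it was at 0.82, 1.03 and 0.70, which overlaps wild type.

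RPS26B (YER131W) encodes eS26, a protein beside the exit of the messenger RNA channel. Its relative levels were 0.96, 1.52 and 0.89 in wild type, -0.83, -0.11 and 0.16 in fhf1, 0.60, 0.37 and 0.24 in fhf2, and 1.42, 1.59 and 1.86 in fhf3. Both fhf1 and fhf2 lay wholly below wild type, fhf1 below fhf2, and fhf3 overlapped wild type. The relative difference in fhf1 was -1.42, or 2.68-fold lower (limma, adjusted p = 5.23e-05 as deposited and 0.000111 with the arrays centred). RPS26A (YGL189C), the other copy, was at 1.03, 1.58 and 1.23 in wild type, 0.89, 1.23 and 1.56 in fhf1, 1.32, 1.29 and 1.11 in fhf2, and 1.66, 1.72 and 1.78 in fhf3. Cultures of fhf1 and fhf2 overlapped wild type, with relative differences of -0.09 and -0.07, and those of fhf3 lay above it.

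RPS21A (YKR057W) encodes eS21, a small protein of the body. It stood at -0.09, 0.67 and 0.13 in wild type, -1.30, -0.93 and -0.26 in fhf1, -0.39, -0.40 and -0.39 in fhf2, and 0.54, 0.69 and 0.64 in fhf3. It fell by 1.10 in fhf1 (adjusted p = 0.00468), without overlap. RPS21B (YJL136C), at 0.62, 1.36 and 0.86 in wild type and -0.17, 0.20 and 0.73 in fhf1, overlapped in 1 culture and had a relative difference of -0.73, which passed with the arrays centred (adjusted p = 0.0147) and not as deposited (0.165). In fhf2 RPS21B was at 0.47, 0.64 and 0.58, and in fhf3 at 1.46, 1.66 and 1.34, both overlapping wild type.

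RPS24B (YIL069C) encodes eS24. Its relative levels were 0.36, 0.95 and 0.52 in wild type, -0.85, -0.37 and -0.04 in fhf1, -0.08, -0.40 and -0.08 in fhf2, and 0.81, 0.87 and 1.17 in fhf3. It fell by 1.06 in fhf1 (adjusted p = 0.00651), and fhf1 and fhf2 did not overlap wild type. RPS24A (YER074W) was at 0.46, 1.03 and 0.56 in wild type and -0.60, 0.03 and 0.20 in fhf1. Its relative difference of -0.84 passed with the arrays centred (adjusted p = 0.00277) and not as deposited (0.0593). RPS24A was at -0.07, 0.05 and 0.14 in fhf2, below wild type, and at 1.22, 1.11 and 1.03 in fhf3, just above it.

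RPS27B (YHR021C) encodes eS27, a zinc-binding protein. It was at 1.13, 1.87 and 1.57 in wild type, 0.03, 0.57 and 1.23 in fhf1, 1.01, 1.15 and 1.04 in fhf2, and 1.90, 2.16 and 2.07 in fhf3. It fell by 0.95 in fhf1 (adjusted p = 0.0258) although fhf1 replicate 3 lay inside the wild type range. RPS27A (YKL156W) was at 0.72, 1.14 and 0.92 in wild type, 0.07, 0.40 and 0.89 in fhf1, 0.63, 0.49 and 0.67 in fhf2, and 1.36, 1.58 and 1.54 in fhf3. Its relative difference in fhf1 was -0.51, with an overlap in 1 culture (adjusted p = 0.562 as deposited and 0.0429 with the arrays centred).

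RPS13 (YDR064W), a single gene, encodes uS15, which binds the central domain of the ribosomal RNA. It was at 0.20, 0.54 and 0.45 in wild type, -0.79, -0.50 and -0.12 in fhf1, 0.06, -0.02 and 0.06 in fhf2, and 0.88, 1.02 and 0.96 in fhf3. The strains did not overlap, and the fall in fhf1 was 0.90 (adjusted p = 0.0342). Of these 6 genes, RPS22A alone was still called from the deposited values when fhf1 replicate 1 was left out, and RPS22A and RPS26B when fhf1 replicate 2 was. RPS13 and RPS27B also lost their call without wild type replicate 2 or 3.

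The smallest relative differences in fhf1 were in RPS15, for the head protein uS19, and in both genes for eS6, the phosphoprotein downstream of TORC1. They were -0.05 in RPS15, -0.08 in RPS6A and -0.06 in RPS6B. RPS15 stood at 1.74, 1.84 and 1.52 in wild type and at 1.40, 1.82 and 1.83 in fhf1, with 2 of the fhf1 cultures inside the wild type range. In the centred fit, 14 of 21 head genes and 19 of 32 body genes fell in fhf1, with medians of -0.59 and -0.52.

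**Figure D2:**
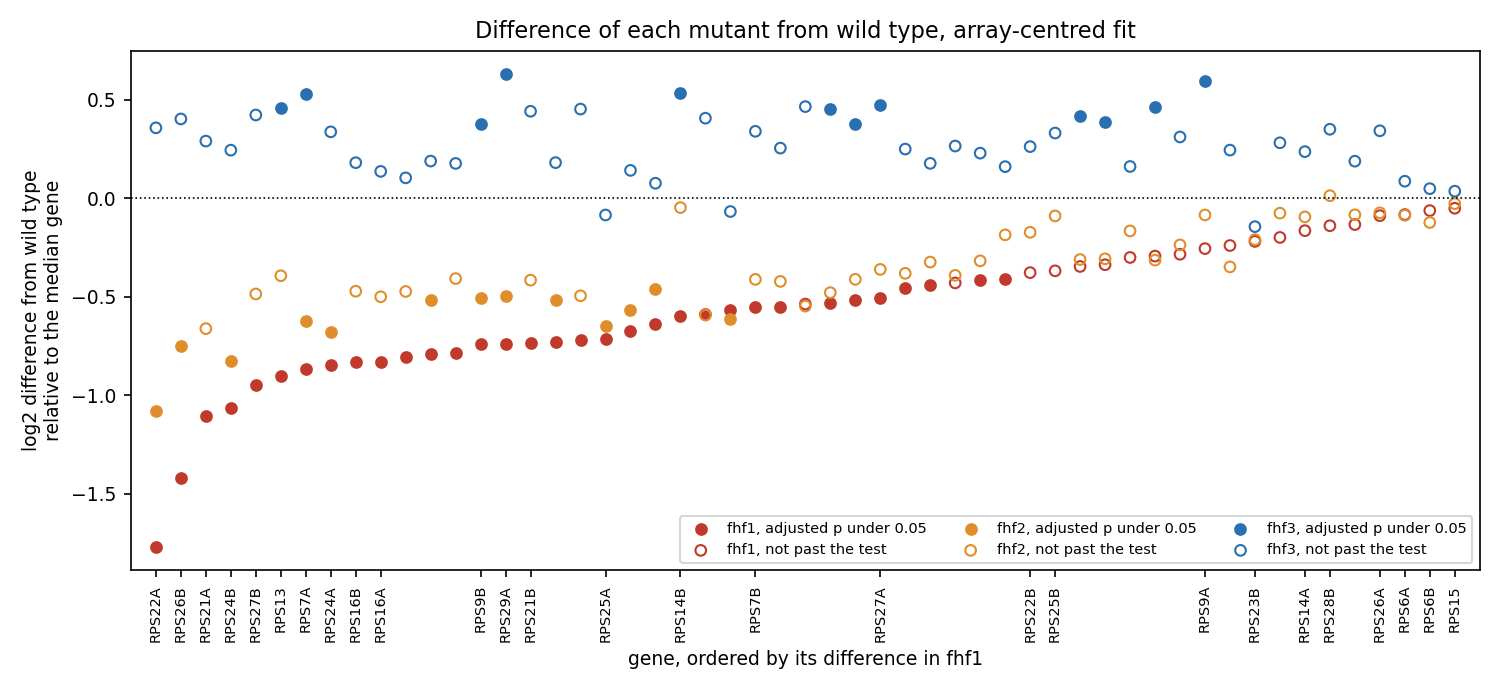
Relative log2 difference from wild type (y axis) of each measured small-subunit gene (x axis, ordered by the difference in fhf1, with some of the genes labelled) in fhf1, fhf2 and fhf3, filled where the fit on centred arrays passed and open where it did not. RPS22A reaches -1.77 in fhf1 and -1.08 in fhf2, while RPS15 lies between -0.05 and 0.04 in the 3 mutants.

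In fhf2, 52 of the 53 relative differences were below 0, with a median of -0.41. The lowest was -1.08 and the highest, in RPS28B, 0.01. RPS22A alone fell in the fit on the deposited values, by 1.08 (adjusted p = 0.0105), against 1.11% of all genes called lower. The call was lost without fhf2 replicate 2, without fhf2 replicate 3 or without wild type replicate 3, and leaving out wild type replicate 1 brought the count to 2. With the arrays centred 13 genes fell, against 5.03% of all genes, and in 31 genes the fhf2 cultures lay below all wild type cultures, against 12.5% of all genes. Besides RPS22A they included RPS7A, RPS9B, RPS24A, RPS24B, RPS25A, RPS26B and RPS29A. RPS24 was the only pair with both copies among them. The centred count was 2 without fhf2 replicate 2 or without fhf2 replicate 3, 3 without wild type replicate 2, 5 without fhf2 replicate 1 and 6 without wild type replicate 3.

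In fhf3, 50 of the 53 relative differences were above 0, with a median of 0.28 and a range from -0.14 in RPS23B to 0.63 in RPS29A. None was called in limma's fit on the deposited values, against 4.39% of all genes called higher, while 3 were higher at an unadjusted p under 0.05, against 9.83% of all genes. With the arrays centred 12 genes rose, against 19.3% of all genes, so the share of small-subunit genes was close to the background. In 34 genes the fhf3 cultures lay above all wild type cultures, against 32.1% of all genes. The direction depends on the scale: without centring on the median gene, the median difference was -0.0012. The count with centred arrays was 27 without wild type replicate 2, 6 without wild type replicate 1, and 7 without wild type replicate 3 or fhf3 replicate 2. From the deposited values it was 4 without wild type replicate 2.

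The largest rise in fhf3 was in RPS29A (YLR388W), for the zinc-binding head protein uS14. It stood at 0.39, 0.55 and 0.24 in wild type, -0.50, -0.24 and -0.20 in fhf1, 0.07, -0.05 and -0.24 in fhf2, and 1.02, 1.07 and 1.26 in fhf3. The fhf3 cultures lay above the others with a relative difference of 0.63 from wild type, which passed with the arrays centred (adjusted p = 0.000669) and not as deposited (0.0934). RPS9A, for uS4, an early-binding protein linked to decoding accuracy, had the next largest, 0.60 (adjusted p = 0.00250 with the arrays centred, 0.119 as deposited). The other 10 that rose with the arrays centred were RPS0B, RPS1A, RPS1B, RPS7A, RPS9B, RPS13, RPS14B, RPS18B, RPS20 and RPS27A. They hold both copies of RPS1 and, with RPS9A, of RPS9. Head genes had a median of 0.18 and body genes of 0.32.

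The authors' deposited table tests each mutant against a change of 2-fold. It calls none of the 53 genes in any mutant, where it calls 0.190% of all genes in fhf1, 0.156% in fhf2 and 2.94% in fhf3. In the authors' deposited table, 4 small-subunit genes in fhf1 and none in fhf2 or fhf3 lie beyond 2-fold, and 1 in fhf1 has an unadjusted p under 0.05. The share of all genes past either cut was not counted, so these counts are not read as particular to small-subunit genes.

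Differences between the mutants were tested themselves. Between fhf3 and fhf1, 36 of 53 genes were higher in fhf3, against 10.4% of all genes, and 49 with the arrays centred, against 24.8%. The median relative difference was 0.87, and in 48 genes the fhf3 cultures lay above all fhf1 cultures, against 26.9% of all genes. Leaving out fhf1 replicate 1 brought the 36 to 15. Leaving out any 1 culture of either strain brought the 49 to no fewer than 45. RPS22A differed most, by 2.18, followed by RPS26B, by 1.88. With the arrays centred RPS6A, RPS6B, RPS15 and RPS23B did not pass.

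Between fhf3 and fhf2, 26 of 53 genes were higher in fhf3, against 7.73% of all genes, and 44 with the arrays centred, against 22.5%. The median was 0.69, and 51 genes were without overlap, against 32.7% of all genes. RPS22A again differed most, by 1.48. Leaving out any culture of either strain brought the 26 to between 12 and 17, and the 44 to no fewer than 41.

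Between fhf1 and fhf2 no small-subunit gene passed in limma's fit on the deposited values, against 0.121% of all genes called lower in fhf1, and 3 were lower at an unadjusted p under 0.05, against 1.91% of all genes. In the centred fit RPS14B alone was lower in fhf1, against 1.07% of all genes. The median relative difference was -0.14, but 0.0043 without fhf1 replicate 1. The centred count was 8 without fhf1 replicate 3.

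The copies of a pair were compared through the log2 value of copy A minus that of copy B on the same array, which does not depend on the level of the array. Whether this ratio differed among the 4 strains was tested for 22 pairs by an exact permutation test over all 369600 arrangements of the 12 arrays, whose smallest p is 6.49e-05. In 9 pairs, or 40.9%, p was under 0.05, where 13 of 31 large-subunit pairs, or 41.9%, gave that result. The p-values are not adjusted over the pairs. Set against wild type alone, a single pair in a single mutant, with 3 arrays against 3, could not reach a p below 0.1, and only the separation of the arrays is given.

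The ratio of RPS22A to RPS22B was -0.40, -0.53 and -0.35 in wild type. It was -1.79, -1.72 and -1.95 in fhf1, -0.96, -1.45 and -1.59 in fhf2, and -0.24, -0.47 and -0.28 in fhf3. Cultures of fhf1 were lower than those of fhf2, both were below wild type without overlap, and fhf3 overlapped wild type (exact permutation p = 0.00026). The mean ratio was -0.43 ± 0.10 in wild type, -1.82 ± 0.12 in fhf1 and -1.33 ± 0.33 in fhf2 (SD, n = 3).

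RPS26 moved nearly as far in the other direction, and here copy B was the lowered one. Its ratio was 0.07, 0.06 and 0.35 in wild type, 1.72, 1.35 and 1.41 in fhf1, 0.72, 0.92 and 0.87 in fhf2, and 0.24, 0.13 and -0.07 in fhf3. The order was fhf1, then fhf2, then wild type and fhf3 together (exact permutation p = 0.000455).

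RPS25, for the head protein eS25, which some viral messenger RNAs need to start translation, was a pair in which all 3 mutants went the same way. The ratio was 0.29, 0.05 and 0.18 in wild type, and lay below these values in fhf1 at -0.23, -0.09 and -0.19, in fhf2 at -0.30, -0.32 and -0.53, and in fhf3 at -0.21, -0.21 and -0.30 (exact permutation p = 0.000325). RPS25A (YGR027C) itself had relative levels of 0.45, 1.08 and 0.67 in wild type, -0.37, 0.09 and 0.44 in fhf1, 0.09, 0.18 and 0.08 in fhf2, and 0.67, 0.75 and 0.82 in fhf3. RPS25B (YLR333C) stood at 0.16, 1.03 and 0.49 in wild type, -0.14, 0.18 and 0.63 in fhf1, 0.39, 0.50 and 0.61 in fhf2, and 0.88, 0.96 and 1.12 in fhf3. In fhf1 and fhf2 copy A lay below wild type and copy B overlapped it, whereas in fhf3 both overlapped wild type, with mean relative levels of copy A at 0.73 in wild type and 0.74 in fhf3, and relative differences of -0.08 in copy A and 0.33 in copy B.

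RPS14, for uS11 on the platform of the body, set fhf1 and fhf3 apart. Its ratio was 0.87, 0.89 and 0.85 in wild type, 1.08, 1.18 and 1.63 in fhf1, 0.84, 0.90 and 0.72 in fhf2, and 0.36, 0.50 and 0.85 in fhf3 (exact permutation p = 0.00234). The fhf1 cultures lay above all others, fhf2 overlapped wild type, and fhf3 replicate 3 reached the wild type values. RPS14B (YJL191W) had relative levels of 0.23, 0.51 and 0.20 in wild type, -0.32, -0.16 and -0.26 in fhf1, 0.24, 0.21 and 0.44 in fhf2, and 1.10, 0.95 and 0.78 in fhf3. It was below wild type in fhf1 by 0.60 and above it in fhf3 by 0.53, both without overlap and both passing with the arrays centred (adjusted p = 0.00302 and 0.00218). RPS14A (YCR031C), at 1.10, 1.40 and 1.04 in wild type, 0.75, 1.03 and 1.38 in fhf1, 1.08, 1.11 and 1.16 in fhf2, and 1.46, 1.45 and 1.63 in fhf3, did not pass in any mutant. In the RefSeq gene table for R64, RPS14B and RPS22A are neighbours.

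RPS21 had a ratio of -0.71, -0.69 and -0.73 in wild type, -1.13, -1.12 and -0.99 in fhf1, -0.87, -1.04 and -0.96 in fhf2, and -0.91, -0.97 and -0.70 in fhf3 (exact permutation p = 0.0103). Copy A was thus lower against copy B in fhf1 and fhf2, without overlap. RPS7, for eS7, a body protein, had ratios of -1.10, -1.12 and -0.94 in wild type, -1.33, -1.50 and -1.25 in fhf1, -1.26, -1.33 and -1.20 in fhf2, and -1.08, -1.02 and -0.49 in fhf3 (exact permutation p = 0.0114). Again fhf1 and fhf2 lay below wild type, and fhf3 overlapped it.

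RPS7A (YOR096W) was at 0.00, 0.56 and 0.18 in wild type, -0.95, -0.48 and -0.30 in fhf1, -0.30, -0.46 and -0.26 in fhf2, and 0.80, 0.89 and 0.93 in fhf3. All 3 mutants were clear of wild type in it. RPS7B (YNL096C) was at 1.10, 1.68 and 1.12 in wild type, 0.38, 1.03 and 0.95 in fhf1, 0.95, 0.87 and 0.94 in fhf2, and 1.88, 1.92 and 1.41 in fhf3, where only fhf1 and fhf2 were clear of it. Without fhf1 replicate 2 the p of the ratio was 0.0577.

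Further pairs with a p under 0.05 included RPS9 and RPS27. For RPS9 the mean ratios were 0.17 in wild type, 0.65 in fhf1, 0.59 in fhf2 and 0.38 in fhf3 (exact permutation p = 0.0212, and at most 0.0620 when fhf1 replicate 2 or 3 or fhf3 replicate 2 was left out). For RPS27 they were -0.60, -0.15, -0.47 and -0.55 in the same order (exact permutation p = 0.0248, 0.118 without fhf1 replicate 1, and 0.0504 to 0.0569 without wild type replicate 2 or 3 or any fhf3 culture).

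In the remaining 13 pairs p ran from 0.0847 in RPS18 to 0.989 in RPS16. The RPS16 copies, for uS9 in the head, kept their ratio most closely, with strain means within 0.0456 of each other, while both copies were lower in fhf1, by 0.83 each, without overlapping wild type. RPS6 followed, with strain means within 0.0579. By the fit with centred arrays, both copies fell in fhf1 in 9 of the 22 pairs, 1 copy in 9 and neither in 4. In fhf2 these counts were 1, 10 and 11, and in fhf3, for either direction, 2, 6 and 14. By single genes, 11.1% of all genes fell in fhf1 and 5.03% in fhf2 in this fit, and in fhf3 19.3% rose and 25.4% fell. The same counts were not made for large-subunit pairs. A ratio clear of the wild type arrays was found in 11 of the 22 pairs in fhf1, 8 in fhf2 and 3 in fhf3, against 35.5%, 25.8% and 9.68% of the 31 large-subunit pairs.

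**Figure D3:**
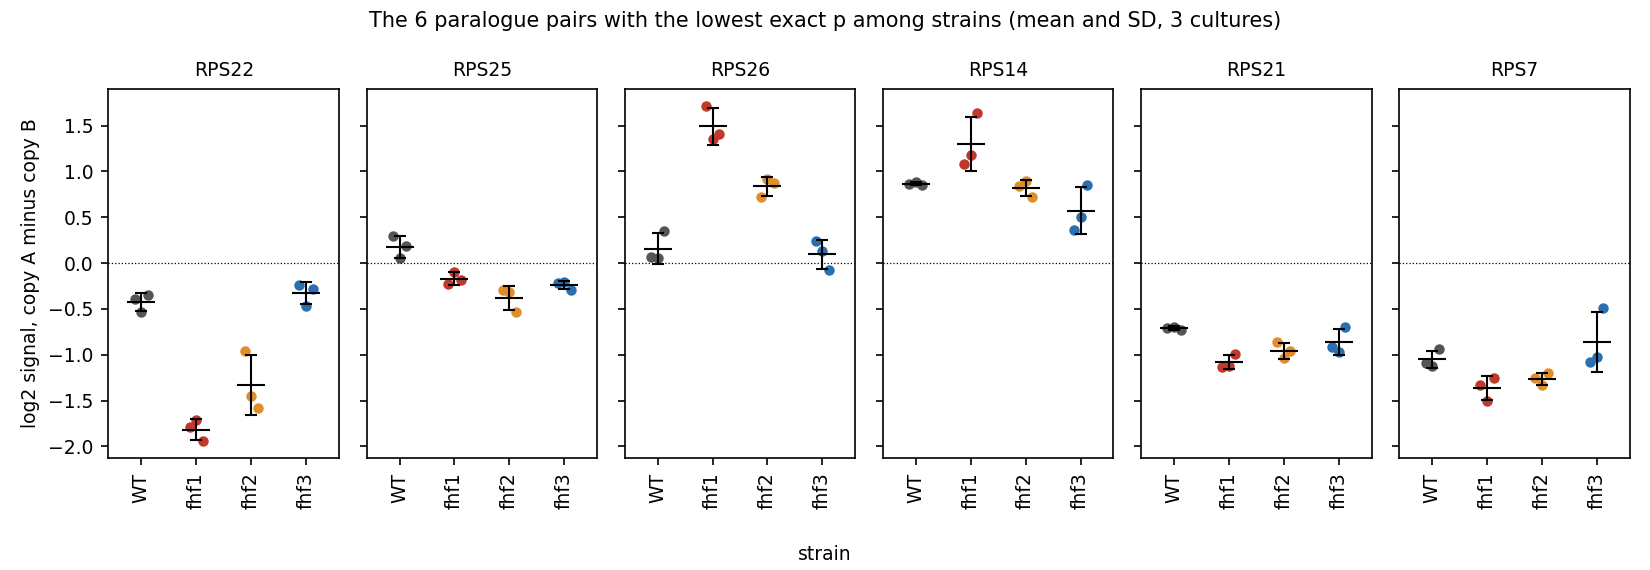
Log2 value of copy A minus copy B (y axis) on each array, by strain, for the 6 pairs with the lowest p in the exact permutation test, with the mean and SD of 3 cultures in black. The RPS22 ratio drops to a mean of -1.82 in fhf1 and the RPS26 ratio has a mean of 1.49 there, while in RPS25 all 3 mutants lie below wild type.

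Among the 53 genes, those with a dimmer average signal had the larger decreases in fhf1 and fhf2. The average was taken over the arrays of all strains, so a fall in fhf1 or fhf2 itself lowers it. Part of the relation is therefore built into the correlations and into the split by signal below. How large that part is was not tested. Across the genes, which share the same arrays and are not independent, the Spearman correlation of the relative difference with average signal was 0.61 in fhf1, 0.55 in fhf2 and -0.34 in fhf3 (53 genes). Over all 5769 genes it was 0.28 in fhf1, 0.23 in fhf2 and 0.0043 in fhf3. The 26 dimmer genes had a median of -0.73 in fhf1 and the 27 brighter ones -0.41, and in fhf2 these were -0.50 and -0.32. The 3569 other genes in the same range of signal had a median of 0.04 for fhf1, 0.03 for fhf2 and -0.02 for fhf3. Compression of bright signals on the array was not tested.

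**Figure D4:**
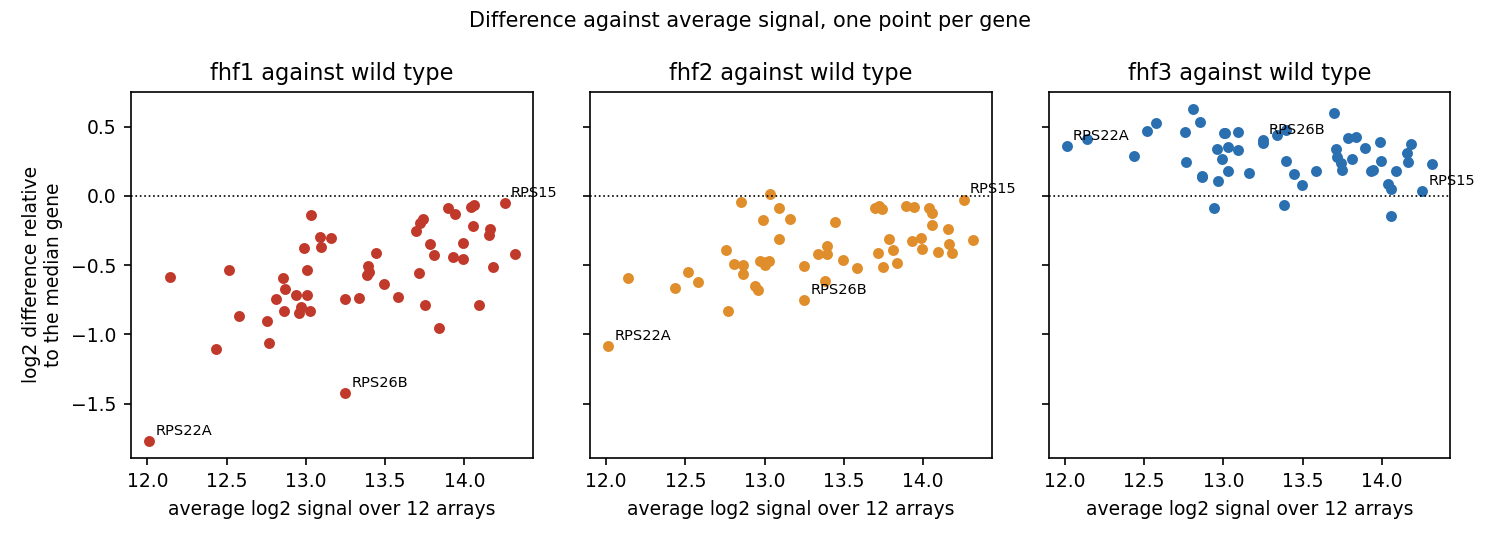
Relative log2 difference from wild type (y axis) against average log2 signal (x axis) for the small-subunit genes in each mutant. The average includes the arrays of the mutant, so it is not independent of the difference. In fhf1 the 26 dimmer genes, RPS22A among them, have a median of -0.73 and the 27 brighter ones -0.41. The bright gene RPS15 lies near 0, while RPS0A, brighter still, lies at -0.42 in fhf1.

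Genes known to act on ribosomal protein genes or their products were read from 2 lists. Against wild type, of 13 regulators only CRF1, a corepressor that replaces Ifh1 when TORC1 is inhibited, passed in the fit on deposited values, falling by 1.13 in fhf3 (adjusted p = 0.000496), where 11.6% of all genes fell. With the arrays centred, ABF1 and UTP22 fell in fhf1, by 0.43 and 0.39, where 11.1% of all genes fell. RAP1 and UTP22 fell in fhf2, by 0.40 and 0.49, where 5.03% of all genes fell. In fhf3, UTP22, part of a complex that binds Ifh1, HMO1, a high-mobility-group protein found at these promoters, and TOD6, a repressor of ribosome biogenesis genes, rose with the arrays centred, by 0.61, 0.40 and 0.34, while CRF1, RAP1 and ABF1 fell. In fhf3 these were 3 of 13 each way, against 19.3% of all genes higher and 25.4% lower, so the shares were close to the background. UTP22 was dim, between percentiles 5.7 and 21.4 of signal over the arrays. The list had a median relative difference of -0.04 for fhf1, -0.19 for fhf2 and -0.22 for fhf3.

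Of 9 chaperones and partners of small-subunit proteins, TSR2, which escorts the RPS26 protein, and YAR1, which escorts the RPS3 protein, rose in fhf3, by 0.76 (adjusted p = 0.0352) and 0.86 (adjusted p = 0.0121), where 4.39% of all genes rose and 19.3% with the arrays centred. TSR4, a chaperone of the RPS2 protein, and FAP7, which acts with the RPS14 protein, also rose in fhf3 with the arrays centred, by 0.40 and 0.48. In fhf1, TSR2, FAP7 and ASC1, a scaffold protein on the head, fell with the arrays centred, by 0.69, 0.48 and 0.82, where 11.1% of all genes fell. In fhf2 ASC1 fell by 0.82, where 5.03% of all genes fell. TSR2 and FAP7 were dim, between percentiles 5.7 and 32.5 and between 5.9 and 21.3 of signal over the arrays. Here the list's median relative difference was -0.32 for fhf1, -0.23 for fhf2 and 0.34 for fhf3.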

How the data were processed

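Polyadenylated RNA was copied to double-stranded cDNA, labelled with Cy3 and hybridised to NimbleGen arrays, per the labels' protocols. A triplicate hybridisation is mentioned as well, and whether repeats were averaged is not settled. The submitters' processing notes name limma. The sources used here do not say how background was corrected or probes were summarised. As deposited by the authors, the files hold log2 values per gene and array, and a table giving for each mutant a log2 fold change, a t score and raw and adjusted p-values. Differences of group means of the array values equal the deposited log2 fold changes within 5e-08.

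The members and the lists were chosen with earlier results of these data known. Values of 5769 genes on 12 arrays in 4 groups were fitted with limma 3.58.1 in R 4.3.3 (lmFit, eBayes). The difference minus that of the median gene was divided by the moderated standard error, two-sided, with Benjamini-Hochberg adjustment over all genes. Prior degrees of freedom were 177.8 for the deposited values and 10.3 with arrays centred. Copy ratios were tested by exact permutation of an F statistic. No filter on low values was set. Values on every array are given for genes called against wild type, for the 6 pairs with the lowest p, and for the other copy of each such gene. RPS29A, as the largest rise in fhf3, and RPS15, as the smallest change, were added after their values were seen. Alternatives were quantile normalization, lowess centring, no centring, no dimmest 25% of genes, a variance trend, each gene's own variance, a replicate block, leaving out each array and the authors' 2-fold test. The fit was tested on simulated data. The number of arrays limits the precision, as do, for the deposited values, their unequal levels: the median residual SD was 0.306 as deposited and 0.161 with arrays centred. A total of 103 rows without values were left out. Of the gene names, 5763 matched the R64 table and 6 did not. No sequence or coordinate is given. Some genes that enter the counts are not reported here by name.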

Additional observations from a re-analysis of the deposited data

Results flagged for a closer look

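Levels of small-subunit genes in fhf3 differed from those in fhf1 and fhf2 when the difference itself was tested with limma. Between fhf1 and fhf2, 0 genes passed as deposited (3 at an unadjusted p under 0.05) and 1 with the arrays centred. Of the 53 genes, 36 differed between fhf3 and fhf1, all higher in fhf3, against 10.4% of all genes called higher. Between fhf3 and fhf2, 26 differed, all higher in fhf3, against 7.73% of all genes. The counts of 36 and 26 became 19 and 5 without centring on the median gene, 7 and 3 with each gene's own variance, and as low as 15 and 12 with 1 array left out. In both, RPS22A had the largest difference, 2.18 and 1.48 on the log2 scale. Groups of 3 arrays were too small to look for single arrays far from the others by a formal rule.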

How the results depend on the processing

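In fhf1 the count of 6 became 33 with each array centred, 37 with quantile normalization, 10 without the dimmest genes, 0 with each gene's own variance and 0 by the authors' 2-fold test. In fhf2 the count of 1 became 13, 17 and, with own variance or the 2-fold test, 0. In fhf3 the count of 0 became 12 with centring and 9 with quantile normalization. Between fhf1 and fhf2 it went from 0 to 1 under both. Between fhf3 and fhf1 the 36 became 19 without centring on the median gene and 7 with own variance. Between fhf3 and fhf2 the 26 became 44 with centring, 43 with quantile normalization, 5 without centring on the median gene and 3 with own variance. Lowess centring of the deposited values gave 8, 1 and 0 against wild type, and 0, 40 and 29 between fhf1 and fhf2, fhf3 and fhf1, and fhf3 and fhf2. Centred arrays with lowess, with a block or with arrays left out were added after the data were seen: with lowess they gave 36, 15, 12, 1 and 48 for fhf1, fhf2, fhf3, fhf1 against fhf2, and fhf3 against fhf2.

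With 1 array left out, the counts ran from 1 to 16 in fhf1, 0 to 2 in fhf2, 0 to 4 in fhf3, 0 to 0 between fhf1 and fhf2, 15 to 37 between fhf3 and fhf1 and 12 to 17 between fhf3 and fhf2. With arrays centred as well, those in fhf1 were 22, 23, 28, 29, 32 and 37, those between fhf3 and fhf2 were 41, 42 and 43, and the others ran from 2 to 15 in fhf2, 6 to 27 in fhf3, 0 to 8 between fhf1 and fhf2 and 45 to 49 between fhf3 and fhf1. With arrays centred and both fhf1 replicate 1 and wild type replicate 2 left out, they were 16 in fhf1 and 1 between fhf1 and fhf2. The pairs under 0.05, 9 of 22, ran from 7 to 10. The median difference in fhf3 was -0.0012 without centring, since the median gene then lay at -0.28, and that of fhf1 against fhf2 ran from -0.2876 without fhf1 replicate 3 to 0.0043 without fhf1 replicate 1. The causes of the other changes were not tested.

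Deviations of same-numbered arrays of different strains correlated between -0.24 and 0.45, with 10 of 18 pairs over 0.1. The mean correlation was 0.14 for the same number and -0.07 for other numbers, and 7 of 12 arrays correlated best with their own number. Whether replicate numbers pair the arrays was not tested. With the replicate block the counts against wild type were 6, 1 and 0, those between mutants 0, 35 and 21, and 8 pairs stayed under 0.05. With centred arrays and the block the counts were 34, 19, 18, 3, 49 and 48.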
